A study of Homo sapiens with 3 samples.

Results

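PRDM16, MECOM and RERE are long genes for developmental transcription regulators. All ARID1B peaks overlapping their RefSeq gene bodies on hg38, or lying within 100 kb of them, were collected from the 2 replicate peak lists, so the members were chosen by peak position. They came to 24 peaks of 3612, of which 14 of 1792 were in replicate 1 and 10 of 1820 in replicate 2. The peaks came from chromatin immunoprecipitation with sequencing (ChIP-seq) of ARID1B in HEK293FRT cells, a line the labels describe as human embryonic kidney, with genotype and treatment both given as none. The series had 2 ChIP replicates and 1 input sample, of which only the replicates were analysed here. Nothing in the labels tells whether they were separate cultures, so their spread may be technical. The lists carry no read counts, so sequencing depth is unknown. Each peak carries the authors' score, a whole number of unstated scale that serves here to order the peaks of 1 list and, as a description only, for ratios between paired peaks. The median score was 74 in replicate 1, with a highest value of 1537, and 75 in replicate 2, with a highest value of 1642.

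ARID1B belongs to the BAF complex, a chromatin remodeller of the SWI/SNF type that shifts and removes nucleosomes, often at enhancers. PRDM16 and MECOM are closely related zinc-finger proteins of the PRDM family, which carry a PR domain related to the catalytic domain of histone methyltransferases. PRDM16 directs brown fat fate and sustains stem cells of the blood and brain. MECOM sustains blood stem cells, is a leukaemia oncogene, and its homologues shape the embryonic kidney of frogs and fish. The MECOM gene is read from an outer start, which gives the long MDS1-EVI1 protein with the PR domain, and from inner starts, which give the short EVI1 protein without it. RERE is a member of the atrophin family of nuclear corepressors, which recruits histone deacetylases and takes part in retinoic acid signalling in the embryo.

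Each of the 3 genes held 3 regions found in both replicates, that is, places where a peak of one list overlapped a peak of the other by at least 1 bp. All 24 peaks lay inside the gene bodies and 0 lay in the 100 kb on either side. None of the 24 peaks came within 1000 bp of an annotated gene end. These counts have no share over the whole lists beside them, so nothing is read from them. All 9 regions lay over 10 kb from every protein-coding gene end, where 36.8% of all 1313 regions lay inside a protein-coding gene and that far from the ends. The positions were the basis of the choice, so nothing is read from this difference. RefSeq exons were not used here, so exonic and intronic positions were not separated.

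**Figure D1:**
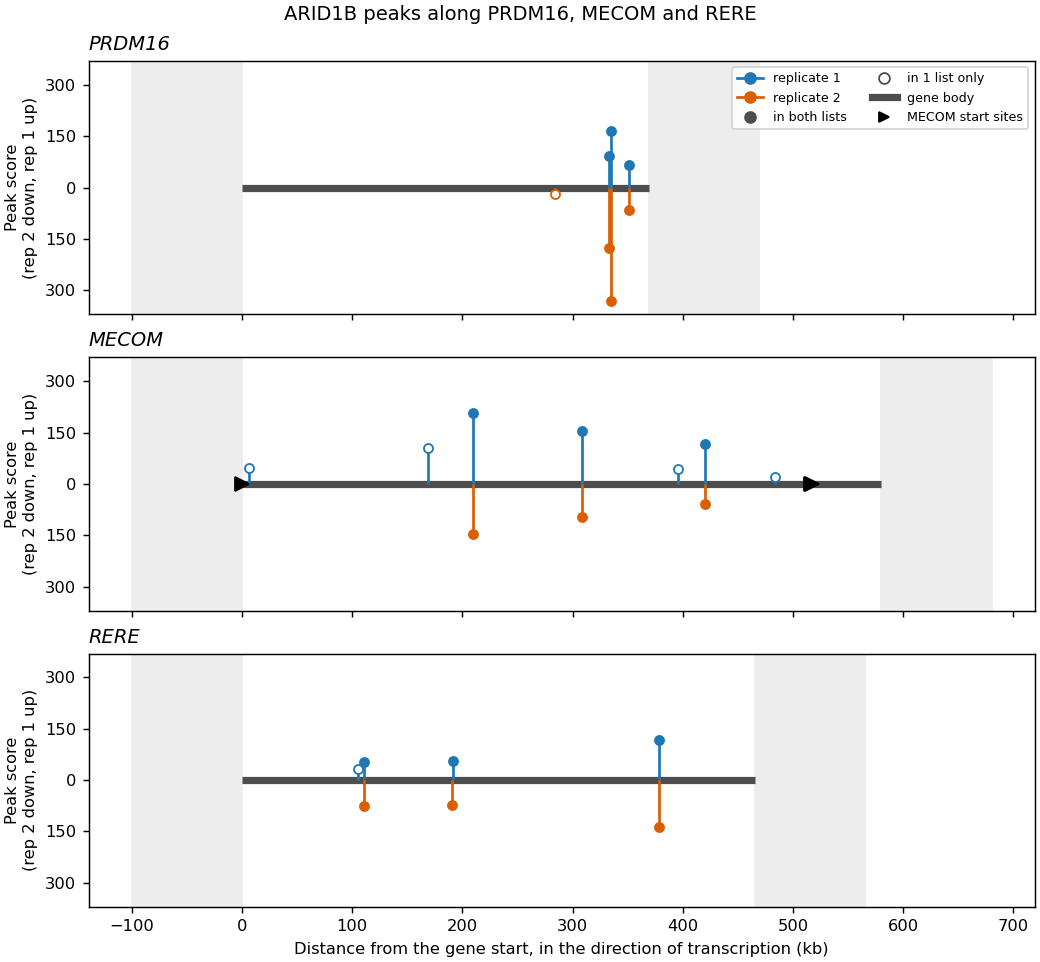
Peak scores (authors' scale) of replicate 1 (upward) and replicate 2 (downward) against distance in kb from the gene start in the direction of transcription, with the gene body as a dark bar and the 100 kb flanks in grey. Filled points were found in both lists and open points in 1 list; the PRDM16 peaks crowd near the end of the gene, while all MECOM peaks lie between the outer start and the 2 inner starts, whose arrows coincide at this scale.

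PRDM16 covers 369 kb at chr1:3069203-3438621 and is read toward higher coordinates. Its 3 regions lay within 18.0 kb of each other, at 90.2% to 95% of the way along the gene. The strongest, at chr1:3403794-3404235, scored 166 in replicate 1 (rank 258 of 1792) and 332 in replicate 2 (rank 65 of 1820). It was the highest-scoring member peak in replicate 2. A second region lay 1.25 kb before it, at chr1:3402214-3402540, with scores of 94 (rank 670) and 177 (rank 263). The third followed 15.6 kb further on, at chr1:3419854-3420244, and scored 66 in both lists (ranks 988 and 1048). It lay 18.4 kb before the end of PRDM16 and 34.4 kb before ARHGEF16, the next protein-coding gene. Replicate 2 had 1 further peak, at chr1:3353089-3353312, with a score of 18 that was near the bottom of its list (rank 1787). The nearest replicate 1 peak was 48.9 kb from it.

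The start of PRDM16, beside that of its divergent non-coding gene PRDM16-DT, held no peak in either list. The first region found in both replicates lay 333 kb downstream of it. ACTRT2, an actin-related gene 46.3 kb before PRDM16, had no peak within the window either.

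MECOM covers 580 kb at chr3:169083507-169663712 and is read toward lower coordinates. The RefSeq promoter table lists 3 starts for it. The second lies 516 kb downstream of the first, and the third 0.932 kb after the second. All 10 MECOM peaks, 7 of replicate 1 and 3 of replicate 2, lay between the first and the second start, a stretch of 89.0% of the gene body. The 3 of replicate 2 each overlapped 1 of the 7, so they add no further places. As the stretch is most of the gene, nothing is read from their lying in it. The nearest peak to the outer start was 6.10 kb away and the nearest to the second start 32.0 kb away, both in replicate 1 alone. The 63.0 kb from the third start to the end of the gene held 0 peaks.

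The 250 bases before the outer start (chr3:169663713-169663962) and before the second start (chr3:169147472-169147721) are shown because they bound the stretch with all the MECOM peaks. They come from RefSeq (GRCh38.p14), minus strand, written 5′ to 3′, and no peak overlapped them. Capitals mark matches, on either strand, to GGGCGG (the GC box) in the first and to TGTGGT (RUNX) in the second.
MECOM outer start: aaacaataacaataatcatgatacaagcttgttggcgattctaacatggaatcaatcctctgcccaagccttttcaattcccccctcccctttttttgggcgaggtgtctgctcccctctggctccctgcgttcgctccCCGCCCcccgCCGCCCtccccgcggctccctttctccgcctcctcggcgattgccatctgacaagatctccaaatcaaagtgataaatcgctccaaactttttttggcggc
MECOM second start: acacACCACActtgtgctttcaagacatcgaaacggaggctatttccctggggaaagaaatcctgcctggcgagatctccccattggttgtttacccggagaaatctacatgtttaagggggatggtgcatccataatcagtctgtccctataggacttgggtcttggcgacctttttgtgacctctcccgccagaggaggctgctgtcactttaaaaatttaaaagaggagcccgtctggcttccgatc

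The GC box matched at 2 places before the outer start, at 0 before the second and at 1 before the third. Of 35116 RefSeq promoter windows cut to the same 250 bases, 42.6% held it. TGTGGT matched once before the second start and is held by 11.0% of windows, while GATAAG, the GATA motif, matched once before the third start and is held by 5.65%. Searched likewise on both strands, the AP-1 motif TGANTCA (held by 6.57% of windows), the CRE motif TGACGTCA (1.65%), the TEAD motif GGAATG (11.9%) and the E box motifs CAGGTG (17.5%) plus CAGCTG (14.0%) had 0 matches before all 3 starts. The letters describe the starts only, since the peaks lie elsewhere. PRDM16 and RERE had no entry in the promoter table. Their starts are therefore taken as the outer end of the gene body, and a peak may lie nearer to an inner start that was not looked at.

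The strongest MECOM region, at chr3:169453550-169454027, scored 208 in replicate 1 (rank 166) and 147 in replicate 2 (rank 355). It lay 210 kb downstream of the outer start and inside MECOM-AS1, a non-coding gene annotated on the other strand, 5.68 kb from its start. The middle region, at chr3:169354702-169355073, scored 155 (rank 302) and 96 (rank 653). The third, at chr3:169243177-169243671, scored 116 (rank 482) and 60 (rank 1137) and lay inside the predicted non-coding gene LOC124909454, 1.12 kb from its start. The 3 regions stood 306, 207 and 95.7 kb before the second start and were separated by 98.5 and 111 kb. All 3 scored lower in replicate 2 than in replicate 1.

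Replicate 1 had 4 MECOM peaks that replicate 2 lacked. One of them, at chr3:169495118-169495339, scored 105 (rank 552), not far under the 116 of the weakest MECOM peak of that list that was found in both. Of the 583 replicate 1 peaks scoring 105 or more, 556 (95.4%) overlapped a replicate 2 peak and this one did not. Only 19 of the 475 peaks found in replicate 1 alone scored higher. The nearest replicate 2 peak was 41.1 kb away. The other 3, at chr3:169657401-169657609, chr3:169268334-169268619 and chr3:169179474-169179746, scored 47, 43 and 21 (ranks 1344, 1425 and 1754), all under the median of the list. MECOM thus had 7 peaks in replicate 1 and 3 in replicate 2, so its count of peaks rests on which list is read. No protein-coding neighbour lay within the window. GOLIM4, a Golgi protein gene, was 988 kb away, and ACTRT3, an actin-related gene, 103 kb.

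RERE covers 465 kb at chr1:8352404-8817640, 4.91 Mb beyond PRDM16, and is read toward lower coordinates. Between those genes lay 1 region found in both replicates. In RERE the regions were spread widely, over 268 kb, from 23.7% to 81.3% of the way along the gene. The strongest, at chr1:8439127-8439609, scored 118 in replicate 1 (rank 457) and 136 in replicate 2 (rank 409). It lay 378 kb from the start of RERE and 4.11 kb from RERE-AS1, a non-coding gene annotated on the other strand. The middle region, at chr1:8626525-8626752, scored 56 (rank 1166) and 73 (rank 918). The region nearest the start, at chr1:8707049-8707348 and 110 kb from it, scored 52 (rank 1253) and 76 (rank 870). Gaps of 187 and 80.3 kb separated the 3. Replicate 1 added a peak at chr1:8712677-8712963 with a score of 33 (rank 1627), 5.33 kb from the nearest replicate 2 peak. The protein-coding neighbours SLC45A1, a sugar transporter gene 8.24 kb beyond the end of RERE, and ENO1, the enolase gene of glycolysis 43.4 kb from its start, had no peak.

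No peak lay near the edge of the 100 kb window. The first peak outside it was a replicate 2 peak 185 kb beyond the end of RERE, at chr1:8167125-8167347, with a score of 59 (rank 1173) and no overlap in replicate 1. The next nearest, in both lists, lay 991 kb from MECOM, inside GOLIM4, with scores of 69 and 75. Around PRDM16 the nearest outside peak was 1323 kb away.

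Agreement between the replicates was then read over all members. In replicate 1, 9 of 14 member peaks overlapped a replicate 2 peak (64.3%, exact Clopper-Pearson 95% interval 35.1 to 87.2), against 73.5% of the whole list. In replicate 2 it was 9 of 10 (90.0%, 55.5 to 99.7), against 72.4% of the whole list. The intervals cover counting error only and treat peaks of the same gene as independent, so they are not used to compare with the whole lists. As the genes were picked for holding several regions found in both replicates, the shares are a description and test nothing. They also rest on the same 9 pairs of peaks. By gene, 3 of 3 PRDM16, 3 of 7 MECOM and 3 of 4 RERE peaks of replicate 1 were shared, and 3 of 4, 3 of 3 and 3 of 3 of replicate 2. Peaks found in 1 list only were 1 in PRDM16, in replicate 2, and 4 in MECOM and 1 in RERE, in replicate 1. Each scored below every peak of the same gene and list that was found in both.

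Paired peaks lay close together. The centres of the 9 pairs were a median of 25.0 bp apart, from 11.5 bp at the middle MECOM region to 102 bp at the MECOM region in LOC124909454, and the median over all 1305 one-to-one pairs was 24.0 bp. The overlap covered a median of 77.7% of the wider peak, against 81.6% over all pairs. Member peaks had median widths of 286 bp in replicate 1 and 336 bp in replicate 2, where the whole lists had 290 and 300 bp.

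The scores were middling. A score no lower than the list's median was carried by 7 of 14 member peaks in replicate 1 (50%, exact 95% interval 23 to 77), against 50.3% of the list, and 6 of 10 in replicate 2 (60.0%, 26.2 to 87.8), against 50.1% of the list. Here too the intervals cover counting error only and test nothing. No gene stood at the top of both lists: the best member ranks were 166 in replicate 1, in MECOM, and 65 in replicate 2, in PRDM16.

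The replicates ordered the genes differently. The ratio of the replicate 2 to the replicate 1 score was 1.88, 2.00 and 1.00 at the PRDM16 regions in the order of the gene. At the MECOM regions it was 0.517, 0.619 and 0.707 from low to high coordinates. At RERE it was 1.15, 1.30 and 1.46 in the same order. Over all 1305 pairs the median ratio was 1.02, with 90% of pairs between 0.446 and 2.40, so each of the 9 ratios lay within the usual spread. The score percentile, the share of the list scoring at or below a peak, differed by a median of 14.6 points between the lists at the 9 regions and by 12.3 points over all pairs. It differed most at the MECOM region in LOC124909454, where it was 73.2 in replicate 1 and 37.6 in replicate 2. With 1 group of 2 replicates these differences have no test.

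**Figure D2:**
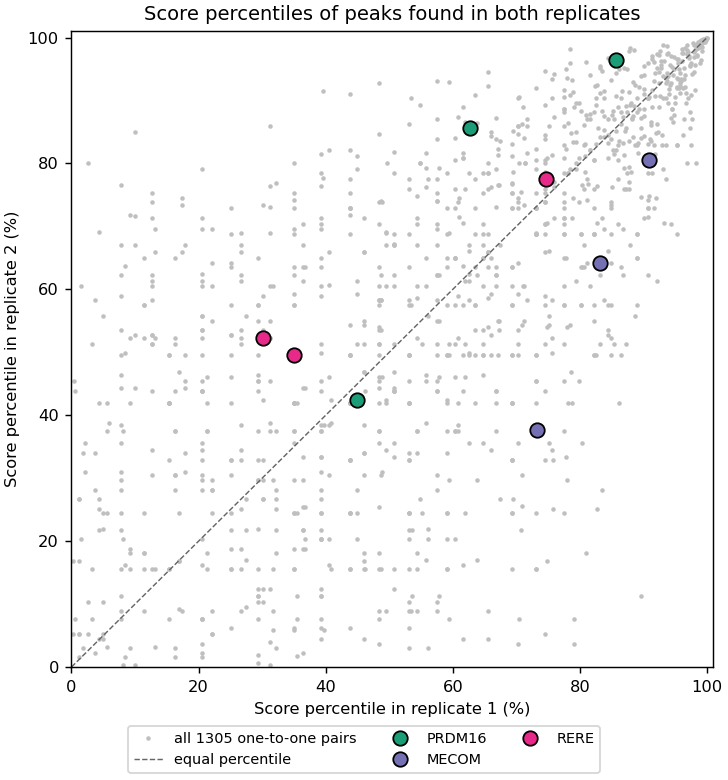
Score percentile (%) in replicate 2 against replicate 1 for the 1305 one-to-one pairs (grey) and the 9 regions of the named genes (coloured), with a dashed line where both are equal. The MECOM regions lie below the line and the RERE regions above it, among the grey points.

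The spacing differed between the genes. Neighbouring regions found in both replicates were a median of 821 kb apart over all 1288 gaps. The PRDM16 gap of 1.25 kb was larger than 2.02% of them and that of 15.6 kb than 8.77%. The MECOM gaps of 98.5 and 111 kb were larger than 19.3% and 20.2%, and the RERE gaps of 80.3 and 187 kb larger than 17.5% and 26.0%. Genes chosen for holding several regions must have short gaps, so these shares are a description.

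**Figure D3:**
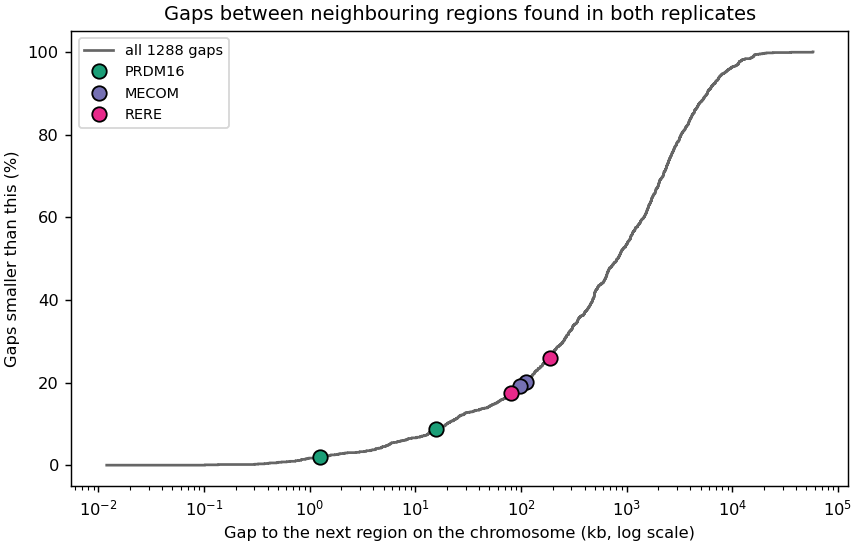
Share (%) of gaps between neighbouring regions found in both replicates that are smaller than a given size (kb, log scale), with the 6 gaps inside the named genes coloured. The PRDM16 gaps of 1.25 and 15.6 kb lie left of the 4 gaps of MECOM and RERE, which run from 80.3 to 187 kb.

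Few genes held as many regions. Of 19862 protein-coding genes, 557 (2.80%) held at least 1 region found in both replicates in the gene body and 30 (0.151%) held 3 or more. Long genes offer more sequence, and of the 773 genes of at least 300 kb, a length set after the members were known, 20 (2.59%) held 3 or more and 615 held 0. PRDM16, MECOM and RERE tied with 16 other genes at rank 12 by count. Per 100 kb of gene body they held 0.812, 0.517 and 0.645 regions, and the 773 long genes together held 0.0589. Among 3355 genes of 100 kb or more, these densities gave PRDM16 rank 48, RERE rank 84 and MECOM rank 125. The genes were picked for this pattern, so the ranks carry no test.

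**Figure D4:**
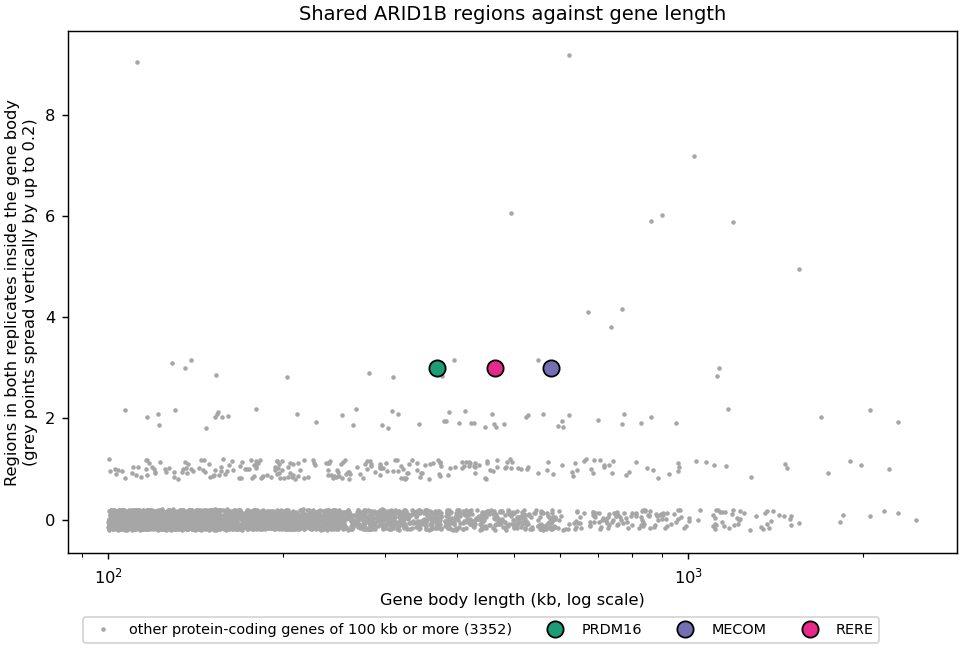
Regions found in both replicates inside the gene body against gene body length (kb, log scale) for protein-coding genes of 100 kb or more. PRDM16, RERE and MECOM share a count of 3, above most genes of their length and below the highest count of 9.

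Among the 20 long genes with 3 or more regions, the stretch from the first to the last region covered 4.88% of PRDM16, the second smallest share of the 20. It covered 36.3% of MECOM and 57.7% of RERE, where the median of the 20 was 35.9%. In 17 of the 20, as in the 3 named genes, no region lay in the 100 kb flanks. The genes with the same count and the nearest length were TRIO, ADAM12 and VAV3 for PRDM16 (absolute log2 length ratios of 0.01, 0.03 and 0.09). For MECOM they were DENND1A, RERE and VAV3 (0.08, 0.32 and 0.56), and for RERE VAV3, DENND1A and ADAM12 (0.24, 0.24 and 0.31). ADAM12, a metalloprotease gene, resembled PRDM16 in having its regions within 16.6 kb, with scores of 108 to 166 in replicate 1 and 52 to 208 in replicate 2. In TRIO, a guanine nucleotide exchange factor gene of nearly the length of PRDM16, they spread over 292 kb.

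Relatives and partners of the 3 proteins were looked up next. Of all protein-coding genes, 2338 (11.8%) had a region found in both replicates in the body or within 100 kb. Of the 17 PRDM and related zinc-finger genes other than PRDM16 and MECOM, 2 (11.8%) had one. ZFPM2, the gene of a GATA cofactor, held 1 in its body with scores of 116 and 103, and PRDM15 had 1 at 14.3 kb with scores of 53 and 76. The other 15 genes of the list had none.

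Of 20 genes for partners of PRDM16 and MECOM, 4 (20.0%) had a region in the body or within 100 kb, against 11.8% of all protein-coding genes. PPARGC1A, a coactivator of heat production in brown fat, held 1 with scores of 97 and 73. EBF2, a brown fat commitment factor, held 1 with 83 and 100, and RUNX1, a blood stem cell factor, 1 with 117 and 67. The region of EHMT2, a histone lysine methyltransferase gene, was 46.2 kb away and scored 25 and 84. The other 16 genes of the list had none. Among these were CTBP1 and CTBP2, the corepressors that bind both proteins, and PPARG, CEBPB, MED1, GATA1, GATA2 and SPI1. No theme of brown fat or blood is read from the genes with a region.

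Of 18 genes for partners of RERE and for retinoid signalling, 6 (33.3%) had a region, against the same 11.8% of all protein-coding genes. EHMT2 is among them and so is counted in both partner lists. The lists were written with earlier results of these data known, so their shares carry no test. The retinoic acid receptor gene RARB held 2 weak ones, scoring 30 in both lists and 35 and 41, and ALDH1A2, which makes retinoic acid, held 1 with 75 and 83. NR2F1, the gene of an orphan nuclear receptor, had regions at 3.54 kb (30 and 44) and 82.7 kb (274 and 251). The region 1.46 kb from ATN1, the atrophin 1 gene, scored 177 and 286, and that 60.3 kb from RARA scored 53 and 81. The other 12 genes of the list had none, among them RARG, RXRA, RXRB and RXRG. In the gene body itself, 1 of 17, 3 of 20 and 2 of 18 members of the lists held a region, against 557 of 19862 protein-coding genes (2.80%). Gene length differs between lists and was not taken into account, and a region within 100 kb of a listed gene may be nearer to another.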

How the data were processed

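ARID1B ChIP-seq peaks of 2 replicates were analysed; the input sample has no list here. Per the submitters' processing notes, the tools were MACS2 2.1.2, Bowtie2 2.3.4.1 and bcl2fastq 2.20.0.422, with build hg38. A record of settings, antibody, duplicate handling or use of the input is not given in the sources used here. The authors deposited, per the file headers, 1 BED list per replicate with a whole-number score per peak, so replicates were called separately. How kept duplicates, if any, affected the scores is unknown.

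Starts were converted to count from 1. Genes came from a RefSeq table (GRCh38.p14), without genes of unlocalized or alternate sequences (58957 kept). Strands came from the RefSeq promoter table for MECOM and from general knowledge for PRDM16 and RERE. Peaks overlapping by 1 bp or more were joined into regions. Percentiles and ranks are within a list. Overlap and counting were checked on simulated data. Python 3.11 with pandas 2.3.3, scipy 1.17.1 and networkx was used.

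The members and gene lists were chosen with earlier results of these data known. Named were the 3 genes, genes overlapped or within 1000 bp, protein-coding neighbours, listed genes with a region, and 3 genes of equal count and nearest length for each. Other genes, among them RERE-AS1, PRDM16-DT, CTBP1 and CTBP2, were named for orientation after their values were seen. Windows of 0, 50 and 200 kb, stricter overlap, peaks at or above the median score, single replicates and density were the alternatives.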

Additional observations from a re-analysis of the deposited data

How the results depend on the processing

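Of 57 alternative values, 49 stayed within 1.5 times the main count or within the interval of the share, and 8 moved. The 49 is no measure of robustness. The windows could hardly move a count, as 0 peaks lay in the 100 kb flanks and the nearest outside peak was 185 kb from RERE. The intervals of the shares are wide (35.1 to 87.2 and 55.5 to 99.7). The windows of 0, 50 and 200 kb, 50% reciprocal overlap and centres within 200 bp left every count of regions found in both replicates at 3 for each gene. With peaks below their list's median score left out, PRDM16 had 2 peaks in replicate 2, MECOM 4 in replicate 1 and RERE 1 in replicate 1. Regions found in both replicates then fell from 3 to 2 in PRDM16, to 2 in MECOM and to 1 in RERE. The falls to 2 stayed within 1.5 times the main count. Reading 1 list alone gave MECOM 3 to 7 peaks in place of its 3 regions, 3 without replicate 1 and 7 without replicate 2. Ranked by regions per 100 kb among genes of at least 100 kb, PRDM16 stood at 48, MECOM at 125 and RERE at 84 in place of 12; this alternative ranks a different quantity over fewer genes. The lists hold no counts, so a peak missing from 1 list cannot be told from one just under the calling threshold.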
